A study of Mus musculus with 48 samples.

Results

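The genes described here are 32 genes of DNA replication and S phase, taken by name from a list of genes with known roles in that process, out of 34617 genes in the table. They comprise 6 subunits of the replicative helicase, 5 genes of origin licensing and helicase activation, 10 genes of the polymerases, the sliding clamp and the joining of Okazaki fragments, 5 genes of nucleotide supply, and 6 genes of S-phase entry and chromatin assembly. All 32 were in the table and passed the filter of a mean of at least 1 TPM. TPM is a transcript abundance corrected for length and scaled to the same total in each library.

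The study sequenced RNA of mouse bone marrow cells that carry ER-Hoxb8, in which the homeobox factor Hoxb8 is tied to a hormone-controlled part of the estrogen receptor. While Hoxb8 is active, such cells keep dividing as myeloid progenitors, and they mature once it is switched off. Each of 24 clones gave 1 library labelled monocytic (monocyte, n = 24) and 1 library labelled as granulocyte-monocyte progenitors, GMP (progenitor, n = 24). The design text says that the states are paired by clone. All 48 libraries carry ER-Hoxb8 and have the same growth protocol in the labels, with RPMI medium, serum and SCF, so the labels do not say how the monocyte cultures were matured, and the plus or minus sign written out in each title is not defined. The labels give no strain, age or number of donor animals, and each pair of libraries is 1 clone of a cell line. The clone numbers form runs, 15 to 26 (n = 11) and 1 to 13 (n = 13), and these stand apart in earlier results of these data, although the labels name no batch.

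Before a cell copies its DNA, the Mcm2 to Mcm7 ring is loaded on origins by Cdc6 and Cdt1, and Cdc45 with the GINS complex turns the ring into the moving helicase. Polymerase alpha with primase starts each strand, the clamp loader (replication factor C) places the clamp Pcna, and polymerases delta and epsilon extend the strands. The E2F transcription factors and cyclin E switch on many of these genes as a cell passes from G1 into S phase, and myeloid cells leave this cycle as they mature.

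The labelled states were checked against marker genes. Of 8 progenitor markers, 7 fell in monocytes, among them Cd34, Kit and Flt3, and Cd33 did not pass. Of 8 monocyte markers, 7 rose, among them Csf1r, Lyz2 and Itgam, and Ccr2 fell. All 8 neutrophil markers, the granule and surface genes Ltf, Camp, Ngp, S100a8, S100a9, Mmp8, Cxcr2 and Ly6g, rose as well, with a summed level of 347 to 183392 TPM (median 73002) in monocyte libraries and 3.39 to 10691 TPM (median 27.4) in progenitor libraries. Mast cell and basophil, eosinophil, erythroid and lymphoid markers had summed medians of 56.3, 119, 0.326 and 11.8 TPM in monocyte libraries and of 1426, 1.47, 9.19 and 68.3 TPM in progenitor libraries. The part of these cells in the results was not tested. Progenitor clone 24 had only 8240 genes at 1 TPM or more and progenitor clone 21 had 23247 genes at 0. Tests were therefore also run without these clones, while ranges and counts of overlap include them unless stated. Depth was unknown, since TPM keep none.

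Promoter sequence of 4 members is shown because most members were lower in monocytes and E2F factors are known to bind many promoters of replication genes. The windows are those of RefSeq on GRCm38.p6, from 250 bases before to 50 bases after the annotated start, written 5′ to 3′ on the strand of the gene, and capitals mark TTCCCGC or TTGGCGC on either strand. They belong to the first 4 members by size of change that hold a match.
E2f2, chr4:136172024-136172323, plus strand: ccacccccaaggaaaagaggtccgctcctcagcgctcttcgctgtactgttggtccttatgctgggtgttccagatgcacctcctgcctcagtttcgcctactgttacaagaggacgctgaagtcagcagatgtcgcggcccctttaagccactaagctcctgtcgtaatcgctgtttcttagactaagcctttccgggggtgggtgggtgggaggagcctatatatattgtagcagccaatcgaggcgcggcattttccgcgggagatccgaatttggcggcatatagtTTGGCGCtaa
Mcm7, chr5:138171834-138172133, minus strand: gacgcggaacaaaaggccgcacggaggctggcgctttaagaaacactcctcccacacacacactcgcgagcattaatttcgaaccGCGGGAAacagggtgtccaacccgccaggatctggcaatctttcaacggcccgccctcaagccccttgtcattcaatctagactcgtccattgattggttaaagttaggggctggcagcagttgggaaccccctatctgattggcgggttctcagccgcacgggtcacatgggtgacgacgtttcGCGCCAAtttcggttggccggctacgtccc
Mcm6, chr1:128359656-128359955, minus strand: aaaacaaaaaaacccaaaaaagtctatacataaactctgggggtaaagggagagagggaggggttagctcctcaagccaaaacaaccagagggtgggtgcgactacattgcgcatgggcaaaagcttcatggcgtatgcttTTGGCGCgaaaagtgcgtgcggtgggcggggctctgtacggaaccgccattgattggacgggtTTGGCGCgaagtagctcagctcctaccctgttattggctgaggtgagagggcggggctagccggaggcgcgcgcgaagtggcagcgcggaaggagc
Rfc4, chr16:23127681-23127980, minus strand: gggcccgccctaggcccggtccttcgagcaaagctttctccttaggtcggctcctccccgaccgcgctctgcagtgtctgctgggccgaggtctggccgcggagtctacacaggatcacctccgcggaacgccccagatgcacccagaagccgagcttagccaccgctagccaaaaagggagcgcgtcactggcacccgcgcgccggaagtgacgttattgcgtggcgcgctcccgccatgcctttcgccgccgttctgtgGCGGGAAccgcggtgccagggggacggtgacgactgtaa
The E2f2 window lies just before the start of the gene in GENCODE M21, whose start differs from that of RefSeq, and the Mcm7 window lies within the Mcm7 gene as annotated there. The E2f2 match begins 40 bases after the start and the Rfc4 match 11 bases after it. Mcm7 has 1 match beginning 165 bases before the start and 1 beginning 20 bases after it, both read on the opposite strand. Mcm6 has matches beginning 109 and 46 bases before the start. RefSeq windows were found for 27 of the 32 members, 32 windows in all, and not for Mcm4, Gins1, Gins2, Pole and Ccne2. The E2F letters stood in 16 of the 32 windows (50%), from 15 genes, against 6.81% of all 32851 windows and 12.3% of the 10206 windows of genes tested. Of the 25 matches, 12 began at or after the start. The letters TTTGAA, the core of the CHR element of mitotic genes, stood in 12.5% of members' windows and in 12.5% of those of tested genes. CCAAT stood in 53.1% of members' windows and in 38.4% of those of tested genes, and its reverse, ATTGG, can share letters with TTGGCGC. The windows of Dut, the member that fell most, and of Pcna and E2f1 hold no E2F letters, which says nothing of binding outside them. Those of Dut and E2f1 lie wholly within the gene as annotated in GENCODE M21, past the start given there.

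The main comparison asked how these genes differed between the monocyte and the progenitor library of the same clones. Most of the replication machinery was lower in monocytes: 24 of the 32 members fell, 1 rose and 7 did not pass the test at an adjusted p of 0.05. Of the 11072 genes tested, 68.8% passed, 36.5% lower and 32.4% higher in monocytes. A total of 16 members were lower by at least 2-fold, against 13.3% of all genes, with a median log2 fold change of -0.97 over the members against -0.06 over all genes tested. Of the 32 estimates, 31 lay below 0. The states were fully separate, with no overlap of their 24 libraries each, for 0 of 32 members and for 1.7% of genes. For Dut and Tyms the overlap came from progenitor clone 24 alone. Their next lowest progenitors held 89.2 and 76.7 TPM, above the highest monocytes at 82.7 and 72.2 TPM. The share of all genes that separate without clone 24 was not computed. Fold changes are monocyte over progenitor on log2(TPM + 1), which understates the change of low genes. In bulk RNA, fewer cells in S phase and less RNA of these genes per cell cannot be told apart.

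**Figure D1:**
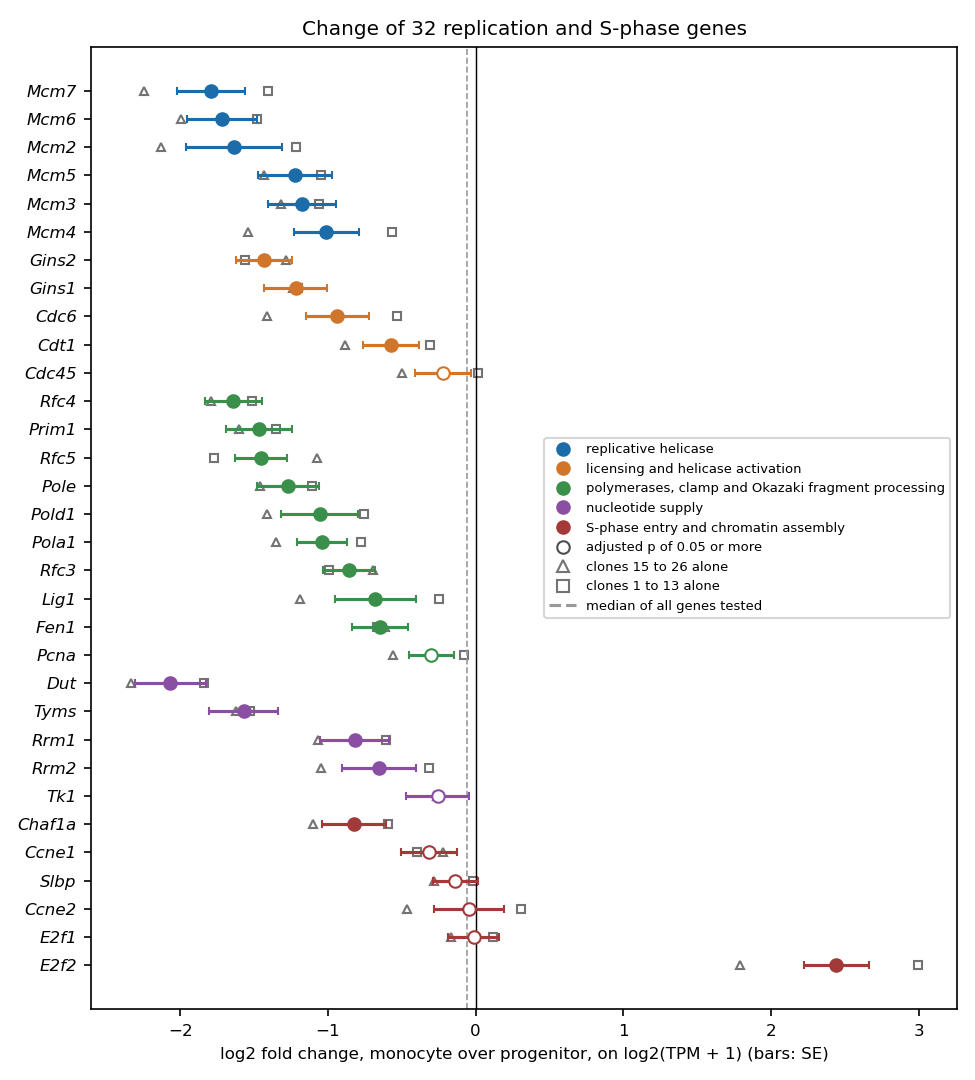
Log2 fold change, monocyte over progenitor, of the 32 genes by role, from 24 clone pairs, with SE as bars. Filled circles passed an adjusted p of 0.05, triangles and squares give the change within clones 15 to 26 and within clones 1 to 13, and the dashed line is the median of all genes at -0.06. E2f2 stands alone to the right at 2.44, and Dut is farthest left at -2.07.

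All 6 subunits of the helicase ring fell, and the median of their log2 fold changes was -1.43. Mcm7 ranged from 5.29 TPM (clone 21) to 75.0 TPM (clone 22) in monocytes, with a median of 34.5, and from 33.8 TPM (clone 24) to 159.7 TPM (clone 15) in progenitors, with a median of 112. A total of 12 monocyte libraries lay below all progenitors and 20 progenitor libraries above all monocytes, so the states overlapped in part. Mcm7 fell by 1.79 (SE 0.23, adjusted p = 9.91e-08) and was lower in the monocyte library of 23 of 24 clones. The gene lies on mouse chromosome 5 from 138164583 to 138172422, minus strand, in the GENCODE M21 annotation of GRCm38 (mm10). It overlaps Cops6 and Ap4m1 on the other strand and hosts 3 microRNA genes, and whether the libraries keep strand is not stated, so reads from the overlap cannot be assigned with certainty.

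Mcm4 had the smallest fall of the ring. It ranged from 3.24 to 37.1 TPM (median 16.8) in monocytes and from 8.27 to 57.4 TPM (median 30.9) in progenitors, with broad overlap. The log2 fold change was -1.01 (SE 0.22, adjusted p = 0.000211), with lower monocyte values in 20 of 24 clones. Mcm6 fell by 1.72, Mcm2 by 1.64, Mcm5 by 1.22 and Mcm3 by 1.18. Their medians were 43.3, 62.8, 27.5 and 47.1 TPM in monocytes against 139, 149.5, 53.0 and 102 TPM in progenitors. By these medians Mcm2 was the highest and Mcm4 the lowest subunit in both states, while Mcm3 stood above Mcm6 and Mcm7 in monocytes and below them in progenitors. Mcm4 was the lowest subunit in 19 of 24 monocyte and in 24 of 24 progenitor libraries. Mcm2 was the highest in 16 monocyte and in 15 progenitor libraries, Mcm3 in 7 monocyte and in 3 progenitor libraries, and Mcm6 in 1 monocyte and in 4 progenitor libraries. The highest subunit exceeded the lowest by a median of 4.35 times in monocytes and 5.0 times in progenitors, per length and within a library.

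Of the licensing and activation genes, 4 of 5 fell. Gins2, a subunit of GINS, had 2.21 to 32.97 TPM (median 20.2) in monocytes and 21.04 to 71.4 TPM (median 51.7) in progenitors. A total of 12 monocyte libraries lay below every progenitor library. Its log2 fold change was -1.43 (SE 0.19, adjusted p = 1.74e-07), lower in 23 of 24 clones, and its partner Gins1 fell by 1.22. Cdc6, the loader of the ring, fell by 0.94 (adjusted p = 0.000324), with medians of 3.15 TPM in monocytes and 6.56 TPM in progenitors. Cdt1, which brings the ring to Cdc6, fell by 0.57 (adjusted p = 0.00986), in 18 of 24 clones. Cdc45 did not pass. It had 2.50 to 32.3 TPM (median 13.8) in monocytes and 6.21 to 31.1 TPM (median 15.1) in progenitors. The states overlapped almost wholly, and the log2 fold change was -0.22 (SE 0.19, adjusted p = 0.306), with lower monocyte values in 11 of 24 clones. Cdc45 overlaps Ufd1 and Gins2 overlaps Gse1 on the other strand.

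Of the synthesis genes, 9 of 10 fell. Rfc4, a subunit of the clamp loader, ranged from 3.79 to 56.4 TPM (median 22.3) in monocytes and from 26.3 to 81.8 TPM (median 61.2) in progenitors. A total of 18 monocyte libraries lay below all progenitors. Its log2 fold change was -1.64 (SE 0.19, adjusted p = 2.04e-08), lower in 24 of 24 clones. Rfc4 lies on chromosome 16 from 23113943 to 23127737, minus strand, and overlaps Eif4a2 on the other strand. The other clamp loader subunits Rfc5 and Rfc3 fell by 1.45 and 0.86. Prim1, the primase subunit that makes the RNA primer, fell by 1.47. The catalytic polymerase subunits Pole, Pold1 and Pola1 fell by 1.27, 1.06 and 1.04. Their medians were 3.08, 16.3 and 3.13 TPM in monocytes and 8.12, 27.7 and 6.95 TPM in progenitors.

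The genes that finish Okazaki fragments changed less. Fen1, the flap nuclease, fell by 0.65 (adjusted p = 0.00371), in 21 of 24 clones. Lig1, the ligase that seals the nicks, had 2.13 to 53.2 TPM (median 19.7) in monocytes and 5.26 to 67.9 TPM (median 28.8) in progenitors, with wide overlap. It fell by 0.68 (SE 0.27, adjusted p = 0.0303) in 17 of 24 clones, and leaving out clone 1, 15, 20 or 21 ended this call, with an adjusted p of up to 0.0608. The sliding clamp Pcna did not pass. It had 36.0 to 268 TPM (median 199) in monocytes and 70.2 to 249.6 TPM (median 208) in progenitors. Apart from 2 low monocyte libraries and 1 high one, the monocyte values lay inside the progenitor range. The low end of that range is clone 24, and the next progenitor value was 127.9 TPM. Its log2 fold change was -0.30 (SE 0.15, adjusted p = 0.0837), lower in 17 of 24 clones, and it passed once each library was centred on its median (-0.38, adjusted p = 0.00726), without clone 24 (-0.38, adjusted p = 0.0171) and without clone 9 (-0.35, adjusted p = 0.0437). The table lists pseudogene copies of Pcna and Tyms as separate entries, so the split of reads between them is uncertain.

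Pcna was the highest member in 22 of 24 monocyte and 21 of 24 progenitor libraries. It made up a median of 19.7% of the members' summed TPM in monocytes (8.94 to 39.5%) and 12.6% in progenitors (8.35 to 14.1%). The 6 helicase subunits made up 25.6% (10.5 to 32.9%) in monocytes and 35.3% (25.0 to 41.8%) in progenitors. The shares describe the unequal changes of the members and were not tested.

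Of the nucleotide genes, 4 of 5 fell. Dut, the enzyme that removes dUTP so that uracil is kept out of DNA, ranged from 2.21 TPM (clone 15) to 82.7 TPM (clone 22) in monocytes, with a median of 30.2. In progenitors it ranged from 61.7 TPM (clone 24) to 119.9 TPM (clone 22), with a median of 101. All but clone 22 of the monocyte libraries lay below all progenitors, the cleanest separation among the members. Dut fell by 2.07 (SE 0.24, adjusted p = 1.54e-08) in 24 of 24 clones. It lies on chromosome 2 from 125247190 to 125258608, plus strand, with no overlapping gene in the annotation. Tyms, the enzyme that makes dTMP, fell by 1.57 (adjusted p = 9.16e-07), with medians of 46.6 TPM in monocytes and 102 TPM in progenitors. The ribonucleotide reductase subunits Rrm1 and Rrm2 fell by 0.82 and 0.65, with Rrm2 lower in only 16 of 24 clones (adjusted p = 0.0235). Tk1, the thymidine kinase of the salvage route, had 3.96 to 41.6 TPM (median 25.4) in monocytes and 6.24 to 32.9 TPM (median 24.3) in progenitors. The ranges lay over each other, with 3 monocyte libraries above all progenitors and 2 below. Its log2 fold change was -0.26 (SE 0.21, adjusted p = 0.290), and it was lower in monocytes in 10 of 24 clones.

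Of the 6 S-phase entry and chromatin genes, 1 fell, 1 rose and 4 did not pass. E2f2, an activator of the E2F family, ranged from 2.31 TPM (clone 22) to 35.0 TPM (clone 20) in monocytes, with a median of 9.64. In progenitors it ranged from a listed 0 (clone 21) to 2.77 TPM (clone 22), with a median of 0.886. All but clone 22 of the monocyte libraries lay above all progenitors. E2f2 rose by 2.44 (SE 0.22, adjusted p = 1.25e-10), was higher in 23 of 24 clones and passed with each clone left out in turn (2.36 to 2.56). The size depends on the pseudocount, with 3.35 at 0.1 and 1.33 at 5. The gene lies on chromosome 4 from 136172394 to 136196057, plus strand, with no overlapping gene.

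E2f1, the relative of E2f2, had 4.70 to 14.9 TPM (median 8.20) in monocytes and 3.75 to 69.8 TPM (median 8.91) in progenitors. The progenitor maximum is clone 21 alone, and the next value was 11.3 TPM, so the states overlapped. Its log2 fold change was -0.01 (SE 0.17, adjusted p = 0.956). The cyclins Ccne1 and Ccne2, partners of Cdk2 at the start of S phase, gave -0.32 (SE 0.19, adjusted p = 0.134) and -0.05 (SE 0.24, adjusted p = 0.872). Without clone 24, Ccne1 passed (-0.41, adjusted p = 0.0310). Ccne2 ranged from 0.613 to 32.1 TPM (median 5.603) in monocytes and from 0.202 to 14.2 TPM (median 7.86) in progenitors. A total of 6 monocyte libraries lay above all progenitors and none below. The progenitor minimum is clone 21, and the next values were 1.15 TPM (clone 24) and 2.71 TPM (clone 19). The lowest monocyte values, 0.613 TPM (clone 15) and 0.635 TPM (clone 21), lay below both of these. Slbp, which binds the stem-loop of histone mRNA, gave -0.14 (adjusted p = 0.428), with medians of 40.2 TPM in monocytes and 44.7 TPM in progenitors. Chaf1a, a subunit of the chromatin assembly factor that follows the fork, fell by 0.82 (adjusted p = 0.00162), in 21 of 24 clones.

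**Figure D2:**
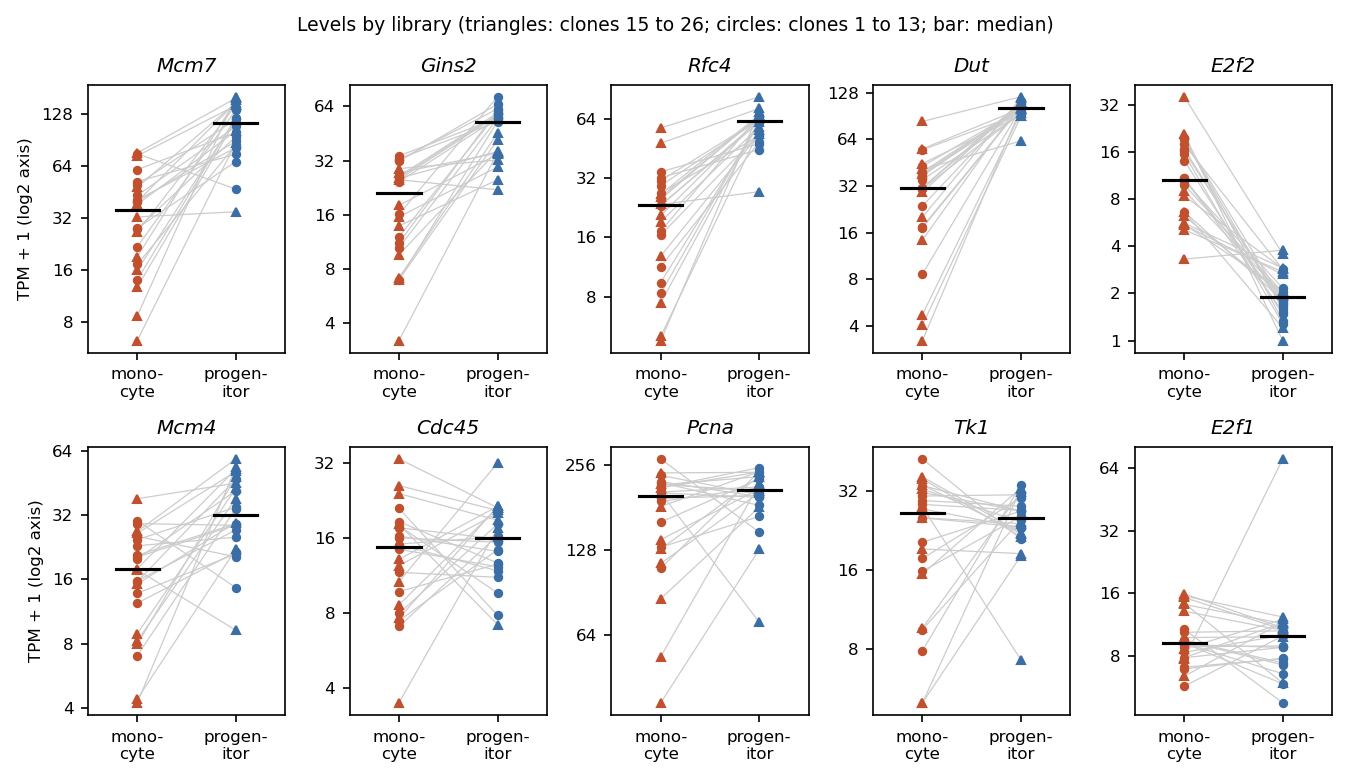
TPM + 1 on a log2 axis for the member with the largest (upper row) and the smallest (lower row) change of each role, in 24 monocyte (left) and 24 progenitor (right) libraries. Lines join the libraries of a clone, triangles are clones 15 to 26, circles are clones 1 to 13, and the bar is the median. All Dut monocytes but that of clone 22 lie below every progenitor, and that of clone 22 lies above progenitor clone 24 only. All E2f2 monocytes but that of clone 22 lie above every progenitor, and Pcna, Tk1, Cdc45 and E2f1 overlap widely.

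Of 76 other genes of the pathway, in 5 lists, 52 fell, 5 rose and 19 did not pass, with a median log2 fold change of -0.70. Among all genes tested, 36.5% were lower and 32.4% higher. Of 10 origin genes, 7 fell, led by the origin recognition subunits Orc2 (-1.90, adjusted p = 3.54e-09), Orc1 (-1.26, adjusted p = 0.000485) and Orc6 (-1.21, adjusted p = 2.36e-06). Of 18 firing and fork genes, 14 fell and none rose. The largest falls were those of Tipin, a fork protection factor (-1.73, adjusted p = 1.90e-07), and of Rpa2 and Rpa3, which coat single-stranded DNA (-1.63 and -1.38). Rpa2 reached 1043 TPM in progenitor clone 21, against a progenitor median of 59.6 TPM.

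Of 21 polymerase, clamp loader and chromatin genes, 16 fell and 1 rose. Pold2, an accessory subunit of polymerase delta, fell by 2.28, the uracil glycosylase Ung by 2.01 and the chromatin assembly subunit Chaf1b by 1.40. Pold4, the smallest subunit of polymerase delta, rose by 0.44 (adjusted p = 0.000231). Of 12 nucleotide genes, 8 fell and 3 rose. The folate enzymes Shmt2 and Shmt1 fell by 2.55 and 2.34, and Dctpp1, a dCTP-cleaving enzyme, fell by 2.16. Samhd1, which degrades dNTPs, rose by 1.91 (adjusted p = 2.14e-09), with medians of 69.8 TPM in monocytes and 22.2 TPM in progenitors. The salvage kinases Dck and Tk2 rose by 0.93 (adjusted p = 2.24e-05) and 0.47 (adjusted p = 0.0414).

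Of 15 E2F, RB and kinase genes, 7 fell (46.7%), 1 rose and 7 did not pass, against 36.5% of all genes lower. Tfdp2, a dimer partner of E2F, fell by 1.58, the repressor-type factor E2f4 by 0.89 and the S-phase cyclin Ccna2 by 0.87. Rb1, the retinoblastoma protein that holds E2F in check, rose by 1.06 (adjusted p = 1.13e-06), with medians of 25.7 TPM in monocytes and 10.8 TPM in progenitors. Of 18 mitosis genes, 9 fell (50%) and 9 did not pass, with a median of -0.48 and none lower by 2-fold. Among all genes, 36.5% were lower and 13.3% lower by 2-fold. Cdk1, the mitotic kinase, fell by 0.65 (adjusted p = 0.00878) and Top2a, the topoisomerase that untangles chromosomes, by 0.59 (adjusted p = 0.0319). Mki67, a marker of cycling cells, gave 0.16 (SE 0.26, adjusted p = 0.597), with medians of 13.2 TPM in monocytes and 12.4 TPM in progenitors.

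On the log2 scale, the level of most of these genes varied more among monocyte than among progenitor libraries. The members summed to 220 TPM in monocyte clone 21 and 1508 TPM in monocyte clone 17, with a median of 965. In progenitors they summed to 498 TPM in clone 24 and 2106 TPM in clone 22, with a median of 1684, and the next lowest progenitor, clone 9, held 1057. The SD of log2(TPM + 1) over clones was wider in monocytes for 30 of 32 members, against 54.6% of all genes tested, and the exceptions were E2f1 and Pola1. The median SD over members was 0.898 in monocytes and 0.517 in progenitors, against 0.6001 in monocytes and 0.565 in progenitors over all genes. Dut had the most unequal spread, with an SD of 1.23 in monocytes and 0.18 in progenitors. Without clones 19, 21, 24 and 26, libraries of which stand apart, the count was 31 of 32, against 64.8% of genes. No test of spread was made.

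**Figure D3:**
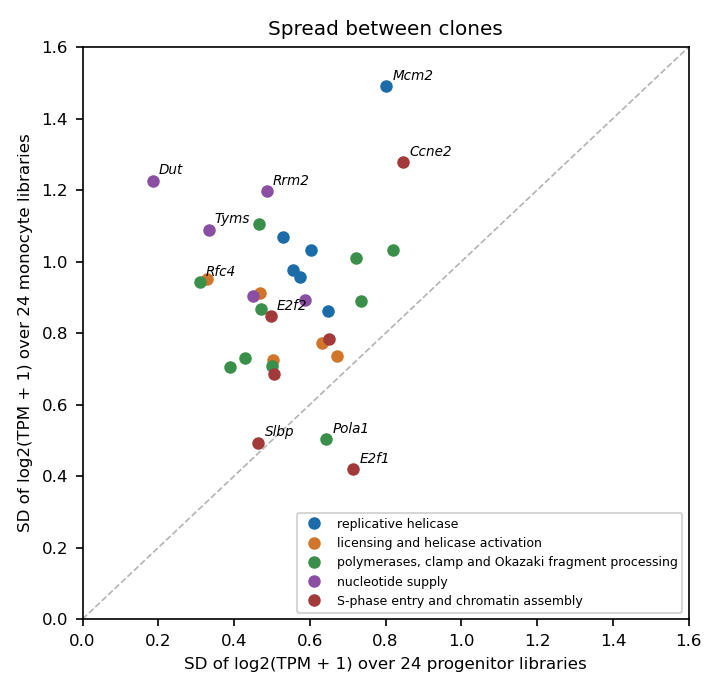
SD of log2(TPM + 1) over 24 monocyte libraries (vertical) against the SD over 24 progenitor libraries (horizontal) for each of the 32 genes, coloured by role. Points above the dashed line varied more in monocytes. Only E2f1 and Pola1 lie below it, and Dut is farthest to the upper left, at 1.23 in monocytes and 0.18 in progenitors.

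The monocyte libraries with the lowest sums were those of clones 21, 20, 15 and 1, at 220, 310, 351 and 467 TPM. Their progenitor libraries held 1532, 1689, 1978 and 1868 TPM and were not low among progenitors. Their mitosis genes summed to 202, 236, 112 and 291 TPM, against a monocyte median of 601. Progenitor markers summed to 181, 199, 105 and 173 TPM in these libraries, against a monocyte median of 644, and lymphoid markers to 0.934, 0.683, 0.351 and 1.26 TPM, against a monocyte median of 11.8. Both were low in all of them, whereas neutrophil markers lay on both sides of their monocyte median of 73002 TPM. Neutrophil markers summed to 183392 TPM in monocyte clone 21, 152490 in clone 20, 33291 in clone 15 and 51757 in clone 1. The highest monocyte sums were those of clones 17, 9 and 22, at 1508, 1476 and 1452 TPM. Progenitor markers were at 3163 TPM in monocyte clone 17 and 6842 TPM in monocyte clone 22, against a monocyte median of 644, while neutrophil markers were at 3320 and 347 TPM. Monocyte clone 9 had progenitor markers at 764 TPM and neutrophil markers at 149545 TPM. Other libraries broke the pattern of progenitor markers. Monocyte clone 26 had the lowest progenitor marker sum, 76.0 TPM, with members at 576 TPM. Monocyte clone 19 had progenitor markers at 3623 TPM with members at 953 TPM, near the monocyte median of 965. The part of these markers in the members' levels was not tested.

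**Figure D4:**
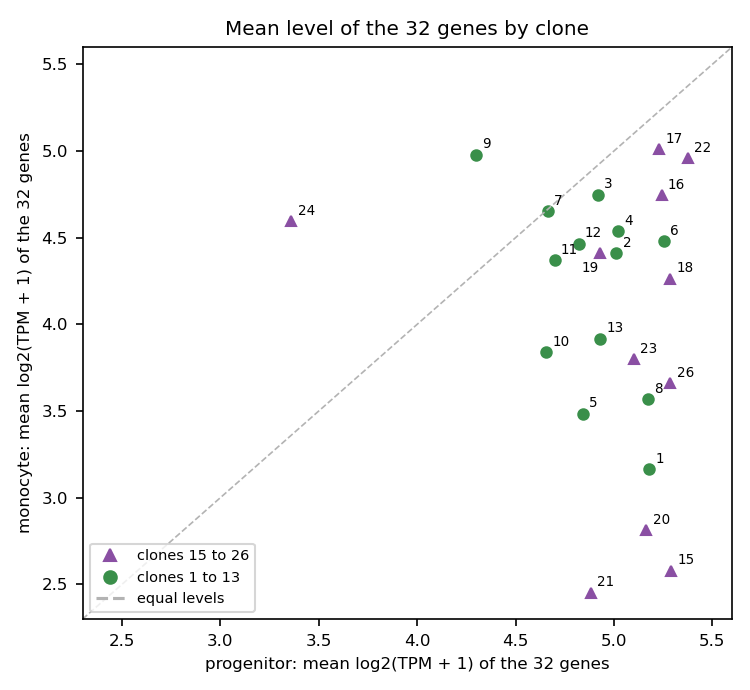
Mean log2(TPM + 1) of the 32 genes in the monocyte library (vertical) against the progenitor library (horizontal) of each numbered clone, with triangles for clones 15 to 26 and circles for clones 1 to 13. Clones 9 and 24 lie above the dashed line of equal levels, clone 7 lies at it, and the monocyte axis runs lowest to 2.45 in clone 21.

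Within a state the members moved together from clone to clone. Over the 496 pairs of members the median Pearson r was 0.763 in the 24 monocyte libraries and 0.672 in the 24 progenitor libraries, against 0.168 and 0.381 over all pairs of genes tested. The genes of a library share its depth and its scaling to a common total, and the values are a description. Without clones 19, 21, 24 and 26 the median was 0.780 in monocytes and 0.509 in progenitors, against 0.164 and 0.379 over all pairs of genes. The lead of the members over all genes was thus smaller in progenitors without these clones. Among progenitors, clone 24 was the lowest library for 29 of 32 members. E2f2 stood apart in monocytes, with a median r of -0.368 with the other members, and not in progenitors, with 0.512. It was highest in monocyte clones 20 and 21, at 35.0 and 19.96 TPM, which held the lowest sums of the members, and lowest in monocyte clone 22. In progenitors Gins2 stood apart instead, with a median r of 0.111, against 0.817 in monocytes.

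**Figure D5:**
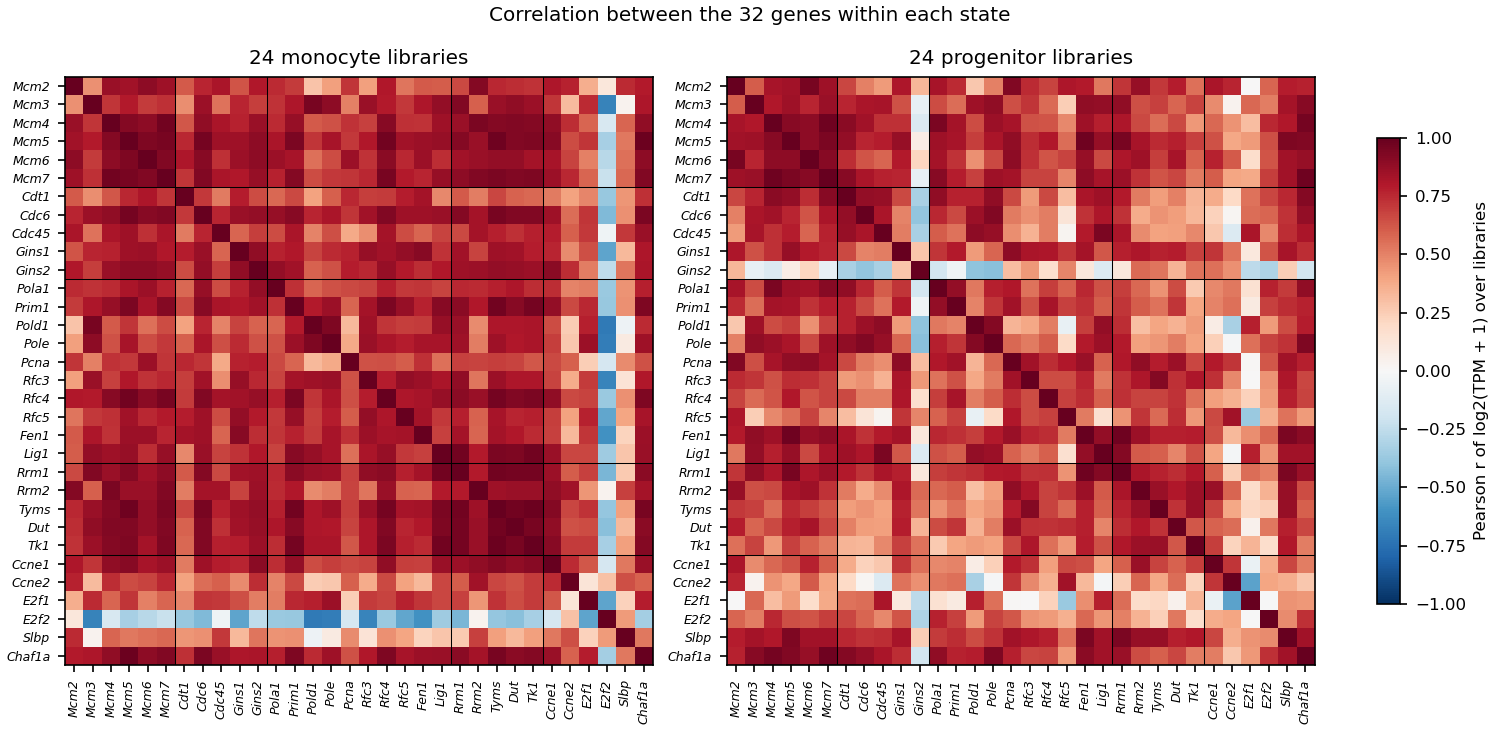
Pearson r of log2(TPM + 1) between each pair of the 32 genes over 24 monocyte libraries (left) and 24 progenitor libraries (right), in the same order, with lines between roles. The E2f2 row is mostly blue (negative) in monocytes, and the Gins2 row is the palest in progenitors.

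A further question was whether a clone with high replication genes as a progenitor also had high ones as a monocyte. No member passed. On simulated data of 24 clones the test recovered 9 of 50 true correlations of 0.5 and 35 of 50 of 0.7. A moderate correlation could therefore be missed. Correlations over the 24 clones ran from -0.358 to 0.383 for the 30 members given one, with a median of -0.129 and 23 of 30 below 0. Over all 10473 genes tested the median r was 0.131. Dut was too even in progenitors to be tested (SD under 0.25). Rfc5 fell into separate clusters, with progenitor clones 24 and 21 (26.4 and 31.3 TPM) apart from the others. The highest was Ccne2 (r = 0.383, Spearman rho = 0.304, permutation p = 0.0629 for r and 0.148 for rho, adjusted p = 0.366 for r). Without the 2 clones farthest from the median, its r was 0.266. The lowest was Lig1 (r = -0.358, rho = -0.268, permutation p = 0.0862 for r and 0.207 for rho, adjusted p = 0.424 for r), and r was -0.307 without the 2 farthest clones. At a raw p of 0.05, 0 members passed by r and 1 by rho, E2f2 (rho = -0.463, permutation p = 0.0232). Among all genes, 2.74% of 10473 passed after adjustment. Within clones 15 to 26 the members' median r was -0.121 with 20 of 30 below 0. Within clones 1 to 13 it was -0.381 with 28 of 30 below 0. Over all genes that reached the filters within each run, the median r was 0.149 and -0.0604, in the same order. Clone 24 was among the 2 farthest clones for 28 of the 31 members tested.

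The runs of clone numbers were compared for the size of the change between states. Within clones 15 to 26 alone, 22 members fell and 1 rose, with a median of -1.21, where 45.1% of genes passed, 27.3% lower and 17.8% higher. Within clones 1 to 13 alone, 21 fell and 1 rose, with a median of -0.71, where 72.1% of genes passed, 33.2% lower and 38.9% higher. On simulated data the test of this difference recovered 3 of 50 true differences of 0.5 and 19 of 50 of 1.0, on the log2 scale. A moderate difference could therefore be missed. The estimates lay below 0 for 27 of 32 members, with a median of -0.47, against -0.29 over all genes tested. In the test of the difference itself, 1 of 32 members passed, against 11.5% of all genes (9.79% lower and 1.66% higher). That member was E2f2, whose change was 1.79 within clones 15 to 26 and 2.99 within the other run, a difference of -1.20 (SE 0.38, adjusted p = 0.0402). In monocytes its median was 5.23 TPM (2.31 to 35.0) in clones 15 to 26 and 14.6 TPM (5.64 to 18.6) in clones 1 to 13. In progenitors it was 1.65 TPM (0 to 2.77) in clones 15 to 26 and 0.721 TPM (0.279 to 1.85) in clones 1 to 13. The sets overlapped in both states, and the call held in 8 of 24 fits that left out 1 clone (adjusted p of 0.00436 to 0.0802). Without clone 24, 5 members passed, E2f2, Mcm4, Cdc6, Pola1 and Pcna, all lower in clones 15 to 26, where 3046 of 11089 genes passed.

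Within progenitors the runs differed in 9 members, against 39.4% of all genes (28.5% higher and 10.9% lower). Higher in clones 15 to 26 were Pold1 (1.08), Pole (0.92), Cdc6 (0.74), Cdt1 (0.67), E2f1 (0.67) and Cdc45 (0.54), on the log2 scale. Lower were Gins2 (-0.82), Ccne2 (-0.78) and Ccne1 (-0.48). With each clone left out in turn, E2f1 passed in 14, Ccne2 in 10 and Ccne1 in 9 of 24 fits, and the other 6 passed in all. Without clone 21, whose progenitor library held 69.8 TPM of E2f1, the E2f1 difference was 0.42 (adjusted p = 0.0222). Gins2 had the smallest adjusted p of these (adjusted p = 3.85e-06). It had 21.04 to 44.4 TPM (median 34.3) in clones 15 to 26 and 51.7 to 71.4 TPM (median 56.8) in clones 1 to 13. Pold1 had a median of 49.96 TPM (9.29 to 98.8) in clones 15 to 26 and 25.3 TPM (13.7 to 28.5) in clones 1 to 13, and the low end is clone 24. Without clone 24, 18 members were higher and 2 lower, where 4927 of 11089 genes were higher. With libraries centred on their median, which lowered this difference by 0.35 for each member, 4 were higher and 16 lower, against 19.7% of all genes higher and 33.4% lower. The estimate turned below 0 for 8 members under that scaling, none of which had passed. Mitochondrial transcripts also differed, with 8.45 to 16.7% of TPM (median 11.9) in progenitors of clones 15 to 26 and 3.44 to 8.38% (median 5.39) in those of clones 1 to 13, and their part was not tested. Within monocytes 1 member passed, against 7.11% of all genes (3.92% higher and 3.19% lower). Ccne2 had a median of 3.48 TPM (0.613 to 9.22) in clones 15 to 26 and 11.6 TPM (2.54 to 32.1) in clones 1 to 13, a log2 difference of -1.55 (adjusted p = 0.0185), with overlap, and without clones 19, 21, 24 and 26 it did not pass (-1.50, adjusted p = 0.0565).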

How the data were processed

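The authors deposited 1 table of TPM per gene symbol for the 48 libraries, made with Salmon on mm10, per the submitters' processing notes. Strandedness and the release of the annotation were not given in the sources used here. Column sums of the deposited TPM ran from 982949 to 999250, and 26 of 34643 rows with date-like names were left out. Because depth cannot be read from TPM, intervals for counting error are left out.

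The members, the gene lists, the naming rule and the alternatives were all chosen with earlier results of these data known. By that rule, values by library were given for the members with the largest and smallest change of each role, those of the opposite sign, those that passed the interaction test and those with the highest and lowest correlation. Of each pathway list, up to 3 passing genes a direction were named, and Mki67, Top2a and Cdk1 of the mitosis list. Genes named beyond this, such as Gins2, Pold1, Ccne2 and Rpa2 in single libraries, were chosen after their values were seen.

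Changes were tested with limma 3.58.1 (R 4.3.3) on log2(TPM + 1), pseudocount 1, with a mean-variance trend, for 11072 genes with a mean of at least 1 TPM, two-sided, with Benjamini-Hochberg adjustment over all of them. Clone was a block in the tests of state and of the interaction between state and run of clones. Differences between runs within a state used the libraries of that state. The pairing comes from the series design text, and the deviations of the 2 libraries of a clone from their state means correlated above 0.1 in 18 of 24 clones. These means were taken over both runs of clones, so differences between runs shared by the states can also enter. Libraries of different clones were not compared, so this count cannot show pairing by clone. Each clone has 1 library per state, so p-values measure the spread between clones. Correlations between states had two-sided permutation p-values from 100000 pairings, adjusted over the 10473 genes whose SD reached 0.25 in each state. A gap of over 40% of the range marked separate clusters, with the outermost gap at each end left out, so a single outlying library did not count. Promoter windows came from RefSeq (GRCm38.p6) and coordinates from GENCODE M21. All tests were checked on simulated data. Scripts ran in Python 3.11.15 with matplotlib 3.10.9, numba 0.67.0, scipy 1.17.1, pandas 2.3.3 and numpy 2.4.6. Alternatives changed the pseudocount, filter, scaling, block and clones, and leaving out each clone in turn was added after seeing the data.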

Additional observations from a re-analysis of the deposited data

Results flagged for a closer look

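E2f2 is the member whose change between states differed between the runs of clones by the test of that difference: -1.20 (change in clones 15 to 26 minus change in clones 1 to 13, log2 scale, SE 0.38, adjusted p = 0.0402 by limma). E2f2 was higher in monocytes in 10 of the 11 clones 15 to 26 and in all 13 clones 1 to 13, and the difference ranged from -1.46 to -1.0 with each clone left out in turn. The call held in 8 of these 24 fits, with an adjusted p of up to 0.0802. It was also lost at a pseudocount of 0.1 (adjusted p = 0.123) or 5 (0.0508), without the filter on level (0.0735), at a mean of at least 5 TPM (0.0530) and with median centring (0.0871).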

How the results depend on the processing

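Across 12 alternatives, the count of members lower in monocytes stayed between 21 and 28 (24 as reported), and E2f2 was the member that rose under each. Without the replicate block, that is without the pairing by clone, 24 members fell and 1 rose. With mitochondrial, Gm and pseudogene entries left out, 28 fell, Cdc45, Pcna, Ccne1 and Slbp in addition, where 4824 of 10513 genes fell. With median-centred libraries 26 fell, Pcna and Ccne1 in addition, where 4718 of 11072 genes fell. In the main fit 4039 of 11072 genes fell. Gm entries held 16.8 to 29.8% of TPM in monocyte and 27.9 to 40.1% in progenitor libraries, and their part was not tested. Of the members' single changes under these alternatives, 365 kept direction and side of the threshold, 6 passed newly, 6 no longer passed and 6 turned direction. Lig1 was lost without a filter on level and in clones 1 to 13, Cdt1 and Rrm2 in clones 1 to 13, and Rfc3 and Fen1 in clones 15 to 26. The turned values, from members that did not pass, were 0.0171 for Cdc45, 0.31 for Ccne2 and 0.12 for E2f1 in clones 1 to 13, 0.0326 for Ccne2 at a pseudocount of 5, 0.0429 for Ccne2 without clone 8, and 0.0793 for E2f1 without clones 19, 21, 24 and 26. The lower change in clones 15 to 26, found for 1 member, was found for 0 at a pseudocount of 0.1 or 5, without the filter, at a mean of at least 5 TPM and with median centring, and for 4 without clones 19, 21, 24 and 26. Without these clones, 2602 of 11045 genes had a lower change. A higher change was found for 1 member with median centring and for 0 otherwise. Within monocytes, members lower in clones 15 to 26 numbered 1, with 0 without those 4 clones and 2 without clone 8. Within progenitors, members higher in clones 15 to 26 numbered 6, with 19 without those 4 clones, where 6366 of 11045 genes were higher. Members lower there numbered 3, with 1 at a pseudocount of 0.1, without those 4 clones or without clone 8, and 16 with median centring. With each clone left out in turn, 23 to 26 members fell and 1 to 1 rose between states, 0 to 5 had a lower and 0 to 0 a higher change in clones 15 to 26, 0 to 0 were higher and 1 to 2 lower within monocytes, and 5 to 18 were higher and 1 to 3 lower within progenitors. No member passed the correlation between states under any alternative run. Where a count moved, the cause was not tested, apart from the fewer clones in the fits that leave some out.

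TPM are relative and keep no depth, so a value near 0, such as E2f2 in progenitors, has no counting limit here. Neutrophil markers summed to as much as 183392 TPM in a monocyte library, and their part in the other values was not tested. Strand is unknown, and Mcm7, Rfc4, Rfc5, Cdc45, Gins2, Tk1, Ccne2, Fen1, Lig1, Chaf1a, Pole, Pola1, Pold1 and Slbp overlap an annotated gene on the other strand. Pcna and Tyms have near copies, and Rrm1 and Cdt1 overlap an entry on their own strand. Each clone gives 1 library per state, and the run of clone numbers cannot be told apart from an unrecorded batch.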
